A study of Mus musculus with 168 samples.

Results

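The neurons described here are the ocular motor neurons of control mice, followed from postnatal day 2 to day 10. They were chosen by the group labels: all control libraries of the oculomotor and trochlear nuclei at days 2, 5 and 10, which are 16 of the 168 libraries of the study. Libraries of the same mouse were averaged, which gave 12 mouse samples, 4 at each age, out of 160 in the whole study. No mouse was sampled at more than 1 age, so the ages are compared between different animals.

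The study used the delta7 mouse model of spinal muscular atrophy (SMA), a disease of motor neurons in which survival motor neuron protein is scarce. Control mice were littermates with the genotype Smn+/+/SMN2+/+/SMN∆7+/+, so they kept both copies of mouse Smn and also carried the human SMN2 transgene and the human SMN transgene without exon 7. SMA mice were Smn-/-/SMN2+/+/SMN∆7+/+ on the same transgenes, and their ocular neurons (6, 5 and 5 mice at days 2, 5 and 10) serve here as a separate set of animals. Other control populations used for comparison were facial motor neurons (5, 4 and 4 mice), lumbar spinal motor neurons (4, 5 and 4 mice) and red nucleus neurons of the midbrain (4, 3 and 4 mice), which are not motor neurons. Control vagus and hypoglossal motor neurons of the study were not compared here. About 150 cells per tube were cut by laser from stained frozen sections, without a genetic label, and polyA RNA was sequenced with Smart-seq2, which copies whole transcripts into cDNA. Values are RPKM (reads divided by transcript length and by the depth of the library), so levels can be compared between genes.

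The control ocular libraries held 4.16 to 10.3 M reads (M, mega), estimated from the table, and 13779 to 18221 genes above 0. All 4 day 2 samples were single libraries of both nuclei together. At day 5, mouse 71 had such a joint library, mouse 29 had an oculomotor library alone, and mice 30 and 75 had 1 library of each nucleus. At day 10, mice 247 and 253 had joint libraries, mouse 252 a joint and an oculomotor library, and mouse 254 1 library of each nucleus. Library numbers in the labels, whose meaning is not given in the sources used here, ran from 47 to 80 at day 5, were all higher at day 2 (up to 210) and higher again at day 10 (up to 252), with no overlap, so age and library number cannot be told apart. Mouse 244 (day 2) and mouse 29 (day 5) correlated least with the other mice of their age. Their median correlations across genes were 0.839 and 0.871, against 0.856 to 0.958 for the other 10 mice. Leaving out both changed the counts of the age comparisons as given with each of them below. Mouse 29 was lowest only within its age, because day 2 mice 14, 26 and 28 had 0.856, 0.856 and 0.860. Pairs of mice of the same age had median correlations of 0.849 at day 2, 0.897 at day 5 and 0.930 at day 10. Pairs of a day 2 and a day 10 mouse had a median of 0.860, so day 2 mice were the least alike. The fits assume the same spread at every age, and the effect of this unequal spread was not tested.

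Ocular motor neurons drive the muscles that move the eye. In the days after birth a motor neuron stops extending its axon, matures its terminals on muscle, receives inhibitory and excitatory synapses, and replaces channels and receptors of the immature cell with those that allow fast, sustained firing. In mice the eyes open after the last age sampled here. Growth-associated proteins and immature tubulins are known to be made in growing axons, voltage-gated potassium channels to shorten action potentials, and heavy neurofilaments to support wide myelinated axons.

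The label was checked with motor neuron markers. Isl1, a transcription factor of motor neurons, had means of 150.2 RPKM at day 2 and 57.3 at day 10. Slc5a7, the choline transporter, had 170.8 and 200.8, and Prph, which encodes peripherin, 517 and 682. Chat, the enzyme that makes acetylcholine, was above 0 in all 12 mice, from 2.06 to 36.3 RPKM at day 2 and from 16.9 to 66.9 at day 10. Phox2a, a factor of these nuclei, had means of only 0.843 and 1.27. Cartpt, a peptide gene that is also a marker of neighbouring Edinger-Westphal neurons, ranged from 1.65 to 2018 RPKM over the day 2 mice and from 4.40 to 4692 over the day 5 mice, and its part in other results was not tested.

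From day 2 to day 10, 823 of 13580 genes tested changed (6.06%), 428 higher (3.15%) and 395 lower (2.91%), by limma with a Benjamini-Hochberg adjusted p under 0.05. Fold changes are differences of log2(RPKM + 1), a scale that understates the change of low genes. Of the lists used here, the immature neuron list gave 21 falls and no rise, potassium channels 9 rises and 3 falls, and myelin markers, which belong to another cell type, 11 rises and no fall. Counts of list members, here and below, stand beside 6.06% of all genes called, 3.15% higher and 2.91% lower. A list near these shares is not read as a result about its members. Mouse values of the 2 ages did not overlap for 793 of the 823 genes, against 1964 of all genes tested (14.5%). Because the 823 genes were picked by the distance between these same mouse values, values that do not overlap are likely, and no more is read from it. The median log2 change over all genes was 0.05. At an unadjusted p under 0.05 there were 2790 genes. The count was 654 with only the 2 ages in the fit, 209 with joint libraries only, which leaves 4, 1 and 3 mice, and between 383 (without day 10 mouse 254) and 956 (without day 5 mouse 29) with 1 mouse left out. It was 406 without mouse 252, 434 without mouse 253 and 518 without mouse 247, all of day 10, and 872 without both mice 244 and 29. All 799 of the 823 genes that were tested with joint libraries only kept their direction, which is likely because those libraries also served to pick them.

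Genes of the growing, immature neuron fell. Of 34 tested genes on a list of such genes (37 listed), 21 were lower at day 10 and 0 higher, with a median log2 change of −1.01 against 0.05 over all genes. Among the 21 was Fabp7, which glia also make, with means of 515 and 97.2 RPKM at days 2 and 10. The part of glia in its fall was not tested. Gap43, the growth-associated protein of axon tips, had 690.2, 891, 819 and 631 RPKM in the day 2 mice, 443, 424, 598 and 592 at day 5 and 180.5, 118.96, 135 and 207.7 at day 10. Every day 5 mouse lay below every day 2 mouse and above every day 10 mouse. Its mean fell 4.72-fold from 758 ± 118.7 to 160.5 ± 40.9 (SD, n = 4 here and below; log2 change −2.25, SE 0.20, adjusted p 3.44e-05).

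Marcksl1, which binds actin and membrane in growing neurites, had 158, 165.1, 166.5 and 169.2 RPKM at day 2, 108, 122.03, 116.4 and 133 at day 5 and 30.5, 29.98, 37.03 and 33.8 at day 10. The spread within each age was small, and the ages did not overlap (log2 change −2.30, SE 0.15, adjusted p 5e-06). Tubb2b, a beta tubulin of immature neurons, went from 31.8 ± 6.89 over 18.9 ± 4.66 to 2.59 ± 0.895 (log2 change −3.21, SE 0.30, adjusted p 3.44e-05). Dcx, which encodes the microtubule protein doublecortin of young neurons, went from 16.7 ± 2.94 over 5.57 ± 2.05 to 1.54 ± 0.842 (log2 change −2.85, SE 0.36, adjusted p 0.000564). Nnat, neuronatin, went from 355 ± 89.6 to 52.7 ± 11.1 (log2 change −2.72, SE 0.25, adjusted p 3.44e-05). Not every growth gene moved: Stmn2, the axonal microtubule regulator stathmin-2, had 1069 ± 60.8 at day 2 and 894 ± 48.0 at day 10 (log2 change −0.26, SE 0.12, adjusted p 0.248). Sox11, a transcription factor of newborn neurons, had at most 2.33 RPKM in a day 2 mouse and was not tested.

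**Figure D1:**
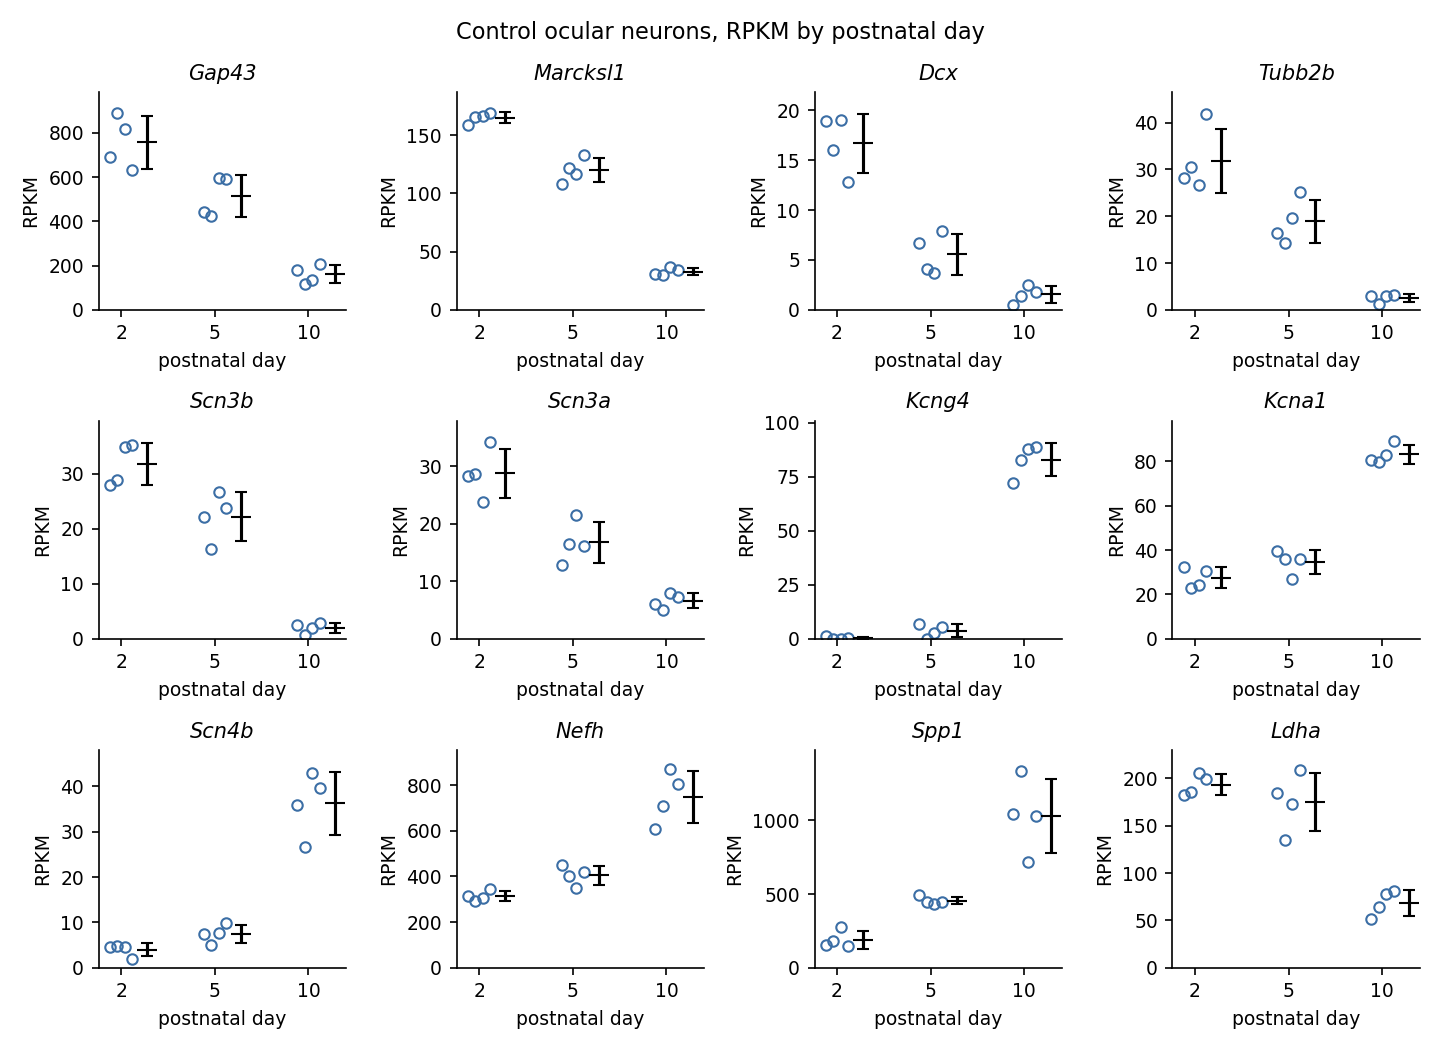
RPKM of 12 genes (vertical axes, each from 0) in control ocular neurons at postnatal days 2, 5 and 10 (horizontal axis). Each open circle is 1 mouse (4 per age), and the bar beside each group is the mean with its SD. Gap43, Marcksl1, Dcx, Tubb2b, Scn3b, Scn3a and Ldha fell, with no day 10 mouse as high as a day 2 mouse, while Kcng4 was at most 6.92 RPKM through day 5 and reached 72.1 to 88.6 at day 10.

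Of 46 tested axon guidance genes (54 listed), 7 were lower and 1 was higher, with a median log2 change of −0.59. Robo2, a receptor for the Slit ligands, went from 27.5 ± 6.68 to 7.11 ± 1.25 RPKM (log2 change −1.80, SE 0.32, adjusted p 0.00528). Its ligand gene Slit2 went from 82.5 ± 20.3 to 35.9 ± 12.4 (log2 change −1.21, SE 0.26, adjusted p 0.0154), and the repellent ligand gene Sema3a from 28.5 ± 2.41 to 11.9 ± 1.205 (log2 change −1.20, SE 0.23, adjusted p 0.00748). Unc5d, a netrin receptor gene, fell by 0.79 on the log2 scale (adjusted p 0.0153, lost without mouse 253). The 1 rise was Sema7a, a membrane-bound semaphorin, from 16.04 ± 0.449 to 30.8 ± 4.91 (log2 change 0.89, SE 0.22, adjusted p 0.0294). The Sema7a call was lost without mouse 244 or any 1 of the day 10 mice, and the Slit2 call without mouse 253 or 254.

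Trophic factor receptors and binding proteins gave 0 rises and 3 falls among 20 tested genes (30 listed). Ngfr, the p75 neurotrophin receptor, had 20.2, 23.7, 11.98 and 21.0 RPKM at day 2, 5.48, 2.64, 4.71 and 6.06 at day 5 and 1.17, 0.596, 0.768 and 1.67 at day 10. The day 5 mice lay between those of days 2 and 10, whose separation the naming rule requires of the 12 largest falls (log2 change −3.29, SE 0.35, adjusted p 0.000134). Igfbp5, a binding protein for insulin-like growth factors, went from 59.7 ± 17.1 to 5.97 ± 1.76 (log2 change −3.12, SE 0.29, adjusted p 3.44e-05), and Gfra2, a neurturin co-receptor, from 23.2 ± 7.05 to 8.79 ± 0.892 (log2 change −1.26, SE 0.27, adjusted p 0.0151, lost without mouse 252). Cdkn1a and Cdkn1c, which encode cell cycle inhibitors, were among the 12 largest falls: Cdkn1a, which encodes p21, went from 48.4 ± 13.4 to 3.93 ± 1.66 (log2 change −3.36, SE 0.38, adjusted p 0.000197), and the imprinted gene Cdkn1c, which encodes p57, from 26.7 ± 7.43 to 3.23 ± 3.17 (log2 change −3.03, SE 0.54, adjusted p 0.00528). None of 14 tested proliferation genes (29 listed) passed the threshold in either direction, against 6.06% of all genes, and their median log2 change was −0.33. In a list this short, no call says little.

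Other large falls fell outside these groups. Ifitm2, an interferon-induced membrane protein gene, had the largest fall under the naming rule, from 57.5 ± 10.7 over 36.4 ± 16.4 to 4.62 ± 5.73 RPKM (log2 change −3.92, SE 0.56, adjusted p 0.00116). Its day 10 values spread from 0.426 to 12.9, all below the lowest day 5 mouse at 21.2. Cxadr, a cell adhesion protein also used by viruses as a receptor, went from 23.7 ± 4.43 to 2.05 ± 0.507 (log2 change −3.01, SE 0.29, adjusted p 4.66e-05), and Cpne5, a calcium-dependent membrane-binding protein, from 57.9 ± 9.31 to 7.67 ± 4.60 (log2 change −2.93, SE 0.38, adjusted p 0.00061). Dll3, a Notch ligand, and Adamts16, a secreted protease, completed the 12 with Scn3b and Ptgds, with log2 changes of −3.21, adjusted p 0.00945, and −3.05, adjusted p 0.000844.

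Potassium channels rose more often than they fell: of 43 tested genes (55 listed), 9 were higher and 3 lower, with a median log2 change of 0.40. Kcng4 (chromosome 8, 119623854 to 119635680, minus strand, GRCm38, protein coding) showed the largest rise of all genes under the naming rule. It encodes a silent Kv subunit that modifies other channels and is a known marker of fast motor neurons. It had 1.27, 0, 0.0399 and 0.604 RPKM at day 2, 6.92, 0, 2.54 and 5.41 at day 5 and 72.1, 82.9, 88.0 and 88.6 at day 10. All 4 day 10 mice were far above every earlier mouse, and days 2 and 5 overlapped. The change was 5.91 on the log2 scale from day 2 (SE 0.54, adjusted p 3.44e-05) and 4.51 from day 5 (SE 0.54, adjusted p 0.000975).

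Kcna1, a Kv1 channel found beside the nodes of myelinated axons, had 32.4, 22.9, 24.1 and 30.6 RPKM at day 2, 39.5, 35.9, 26.8 and 36.1 at day 5 and 80.6, 79.5, 82.9 and 89.3 at day 10 (log2 change 1.57, SE 0.19, adjusted p 0.000418). All 4 day 10 mice lay above the earlier ones. Its relative Kcna2 had 1.40 ± 1.07 and 2.52 ± 0.530 (log2 change 0.68, SE 0.47, adjusted p 0.464). Kcnc1, a Kv3 channel of fast-firing neurons, had 21.0 ± 7.59 and 21.3 ± 5.31 (log2 change 0.05, SE 0.34, adjusted p 0.955). Kcns3, another silent subunit, went from 0.0269 ± 0.0322 to 6.64 ± 2.49 (log2 change 2.84, SE 0.39, adjusted p 0.000869). The falls were Kcna6, Kcnd2 and Kcnt2, and the Kcnt2 call was lost without any 1 of the day 10 mice. Kcnd2, which carries the A-type current Kv4.2, went from 53.3 ± 10.4 to 25.1 ± 5.37 (log2 change −1.06, SE 0.23, adjusted p 0.0148), and Kcna6 from 16.8 ± 8.65 to 2.78 ± 0.430 (log2 change −2.12, SE 0.43, adjusted p 0.0105).

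Sodium and calcium channel genes moved mostly the other way, with 7 of 27 tested (29 listed) lower and 2 higher. The sodium channel beta subunit genes Scn3b and Scn4b went in opposite directions. Scn3b had 28.04, 28.95, 34.96 and 35.2 RPKM at day 2, 22.1, 16.3, 26.8 and 23.8 at day 5 and 2.43, 0.751, 2.02 and 2.85 at day 10. It was low in the day 10 mice alone (log2 change −3.50, SE 0.30, adjusted p 3.33e-05). Scn4b had 4.66, 4.84, 4.64 and 1.99 at day 2, 7.41, 5.02, 7.57 and 9.92 at day 5 and 35.8, 26.7, 42.8 and 39.6 at day 10. It was high in the day 10 mice alone (log2 change 2.92, SE 0.31, adjusted p 0.000138). Of the pore-forming subunits, the embryonic-type Scn3a fell from 28.7 ± 4.32 to 6.62 ± 1.32 (log2 change −1.97, SE 0.25, adjusted p 0.000582), and Scn2a, listed as Scn2a1, from 30.1 ± 5.202 to 15.1 ± 1.502 (log2 change −0.94, SE 0.21, adjusted p 0.0198, lost without mouse 253 or 254). Scn8a, the main subunit of mature nodes, had 36.3 ± 6.96 and 61.4 ± 14.1 and missed the threshold (log2 change 0.73, SE 0.22, adjusted p 0.0698), as did Scn1a with 37.8 ± 8.09 and 43.0 ± 7.09 (log2 change 0.19, SE 0.22, adjusted p 0.684). The calcium channel subunit genes Cacng4 and Cacnb3 fell by 2.21 and 1.76 on the log2 scale (adjusted p 0.00163 and 0.0029).

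Promoters of 4 of these genes are shown, from RefSeq (GRCm38.p6), as the 250 bases before and 50 after the listed start of transcription, because Kcng4, Lrrc52 and Adamtsl5 went from 0 or near 0 RPKM at day 2 to several RPKM or more in every day 10 mouse, and Marcksl1 shared the lowest adjusted p of all genes tested. Lrrc52 and Adamtsl5 are described with the other populations below. Capitals mark matches on either strand to 5 searched motifs: the TATA box TATAAA, the cyclic AMP response element TGACGTCA, the estrogen-related receptor element AAGGTCA, the E-box CACGTG and the GC box GGGCGG.
Kcng4, chr8:119635631-119635930, minus strand: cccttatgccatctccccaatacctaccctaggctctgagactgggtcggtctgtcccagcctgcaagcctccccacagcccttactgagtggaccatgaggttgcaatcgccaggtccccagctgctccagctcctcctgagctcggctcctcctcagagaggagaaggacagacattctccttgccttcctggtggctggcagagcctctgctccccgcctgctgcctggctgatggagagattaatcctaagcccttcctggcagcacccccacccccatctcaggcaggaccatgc
Lrrc52, chr1:167466731-167467030, minus strand: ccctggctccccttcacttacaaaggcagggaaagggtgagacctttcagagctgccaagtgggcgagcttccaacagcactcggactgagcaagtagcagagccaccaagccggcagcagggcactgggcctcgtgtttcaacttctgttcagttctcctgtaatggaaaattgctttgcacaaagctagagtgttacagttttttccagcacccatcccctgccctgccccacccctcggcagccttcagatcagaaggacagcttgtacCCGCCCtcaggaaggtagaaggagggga
Adamtsl5, chr10:80348399-80348698, minus strand: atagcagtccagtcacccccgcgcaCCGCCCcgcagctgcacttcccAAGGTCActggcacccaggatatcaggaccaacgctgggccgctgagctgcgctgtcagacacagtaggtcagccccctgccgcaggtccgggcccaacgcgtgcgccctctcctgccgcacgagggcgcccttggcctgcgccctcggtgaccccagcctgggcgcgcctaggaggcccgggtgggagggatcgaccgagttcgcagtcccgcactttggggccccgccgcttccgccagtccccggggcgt
Marcksl1, chr4:129513331-129513630, plus strand: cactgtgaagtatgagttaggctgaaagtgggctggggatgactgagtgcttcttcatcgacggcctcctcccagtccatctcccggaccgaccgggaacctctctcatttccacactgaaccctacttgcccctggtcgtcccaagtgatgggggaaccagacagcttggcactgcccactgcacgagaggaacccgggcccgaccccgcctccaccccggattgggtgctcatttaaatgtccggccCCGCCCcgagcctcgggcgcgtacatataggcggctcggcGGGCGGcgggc

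The Kcng4 window held none of the 5 motifs, the Lrrc52 window 1 GC box, read as CCGCCC on the strand shown, the Adamtsl5 window 1 GC box and 1 AAGGTCA match, and the Marcksl1 window 2 GC boxes, on opposite strands. AAGGTCA was in 4.66% of the 27025 promoters of the table, 2.96% of the 9097 promoters of genes tested, 4.19% of 310 promoters of genes higher at day 10 and 2.37% of 253 promoters of genes lower at day 10. The GC box was in 35.9% of all promoters, 61.6% of those of genes that rose and 70.0% of those of genes that fell, and in 65.6% of those of genes tested. A match describes the letters of the window and is not a site of binding.

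Inhibitory receptor genes changed in 4 of 21 tested (24 listed). Glra1, the adult glycine receptor subunit, had 0.321, 0.106, 0 and 1.09 RPKM at day 2 and 9.66, 3.07, 2.91 and 2.79 at day 10, with mouse 247 the highest (log2 change 1.93, SE 0.53, adjusted p 0.0475). Glra2, the subunit of immature neurons, had 4.63, 5.19, 8.57 and 4.98 at day 2 and 0.0584, 1.28, 1.83 and 1.78 at day 10 (log2 change −1.68, SE 0.43, adjusted p 0.0354). Days 2 and 10 overlapped in neither gene, and the 2 subunits went in opposite directions. Glrb, the shared beta subunit, rose from 106.1 ± 18.8 to 167.7 ± 34.96 (log2 change 0.65, SE 0.18, adjusted p 0.0493). All 3 glycine receptor calls were lost without any 1 of the day 10 mice, and without mouse 14 or 244 of day 2. Gabra2, a GABA-A receptor subunit, stayed low, with 3.64 ± 2.04 and 2.84 ± 1.14 (log2 change −0.15, SE 0.58, adjusted p 0.916). The chloride transporters that set the sign of these currents did not pass the test: Slc12a5, which extrudes chloride, had 101.8 ± 35.2 and 81.2 ± 2.98 (log2 change −0.26, SE 0.25, adjusted p 0.61), and the importer Slc12a2 had 6.88 ± 4.43 and 6.16 ± 0.558 (log2 change 0.01, SE 0.37, adjusted p 0.989).

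Of 21 tested glutamate receptor genes (25 listed), 1 rose and 2 fell. Grin1, the obligatory NMDA receptor subunit, rose from 112.3 ± 53.1 to 239 ± 32.1 RPKM (log2 change 1.18, SE 0.30, adjusted p 0.0354), a call that was lost without any 1 of the day 10 mice. The metabotropic receptor genes Grm3 and Grm5 fell, Grm3 from 28.5 ± 6.35 to 5.82 ± 0.803 (log2 change −2.09, SE 0.30, adjusted p 0.00117) and Grm5 from 15.2 ± 6.41 to 3.89 ± 1.77 (log2 change −1.72, SE 0.36, adjusted p 0.0135). Grin2b, the NMDA subunit of young synapses, had 25.7 ± 10.1 and 13.4 ± 3.13 and missed the threshold (log2 change −0.83, SE 0.33, adjusted p 0.162). Grin2a, which replaces it in many forebrain neurons, was low at all ages, with at most 4.93 RPKM in a day 2 mouse and 0.197 in a day 10 mouse, and was not tested.

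Transmitter release genes changed in both directions, 9 of 49 tested (53 listed) higher and 6 lower, with a median log2 change of −0.06. Vamp1, the vesicle SNARE of motor terminals, rose from 163.7 ± 36.3 over 221.5 ± 36.4 to 405 ± 43.8 RPKM (log2 change 1.32, SE 0.18, adjusted p 0.000916). Syt2, the fast calcium sensor of motor terminals, rose from 44.2 ± 7.70 to 80.3 ± 3.71 (log2 change 0.86, SE 0.18, adjusted p 0.0117), while Syt1, the related sensor, fell from 83.8 ± 12.04 to 33.4 ± 1.85 (log2 change −1.29, SE 0.18, adjusted p 0.00116). Stx1a, a SNARE of the cell membrane, had 34.6, 36.8, 30.8 and 37.04 at day 2 and 5.001, 0.814, 6.67 and 5.65 at day 10 (log2 change −2.88, SE 0.41, adjusted p 0.00116). All 4 day 10 mice lay below every day 2 mouse. Erc2, a scaffold of the release site, fell from 23.6 ± 4.65 to 2.77 ± 1.17 (log2 change −2.75, SE 0.32, adjusted p 0.000293), and Syp, synaptophysin, rose from 325 ± 43.8 to 569 ± 51.3 (log2 change 0.81, SE 0.14, adjusted p 0.00422). Snap25 had 1109 ± 186.4 and 1405 ± 228.2 (log2 change 0.34, SE 0.16, adjusted p 0.252).

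Neurofilament and identity genes changed singly. Nefh, the heavy neurofilament, had 314, 292, 306 and 345 RPKM at day 2, 449, 403, 350.3 and 421 at day 5 and 607, 709.6, 871 and 805 at day 10. Each age lay above the one before without overlap (log2 change 1.24, SE 0.15, adjusted p 0.000293). Ina, the internexin of young axons, fell from 470.3 ± 129 to 218.8 ± 47.5 (log2 change −1.08, SE 0.22, adjusted p 0.0122). Nefl and Nefm, the light and medium chains, were abundant throughout, with day 10 means of 5202 and 4982, and did not pass the test (adjusted p 0.283 and 0.129). Of 14 tested ocular identity genes (19 listed), Isl1 fell from 150.2 ± 29.3 to 57.3 ± 9.86 (log2 change −1.37, SE 0.22, adjusted p 0.00299), and Rgs4, a regulator of G protein signalling, rose (log2 change 1.79, SE 0.46, adjusted p 0.0349). Among 7 cholinergic genes Ache, acetylcholinesterase, rose from 127.8 ± 19.8 to 226.7 ± 19.6 (log2 change 0.83, SE 0.19, adjusted p 0.0213), and Chat had log2 change 1.46, SE 0.66, adjusted p 0.224. Calca and Calcb, which encode calcitonin gene-related peptides of motor neurons, rose by 1.39 and 0.99 on the log2 scale (adjusted p 0.0122 and 0.0236), and Calcb had means of 465, 929.5 and 903 RPKM at days 2, 5 and 10. The Rgs4 call was lost without mouse 247, 253 or 254, and those of Ache and Calcb without mouse 244, 252 or 254.

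**Figure D2:**
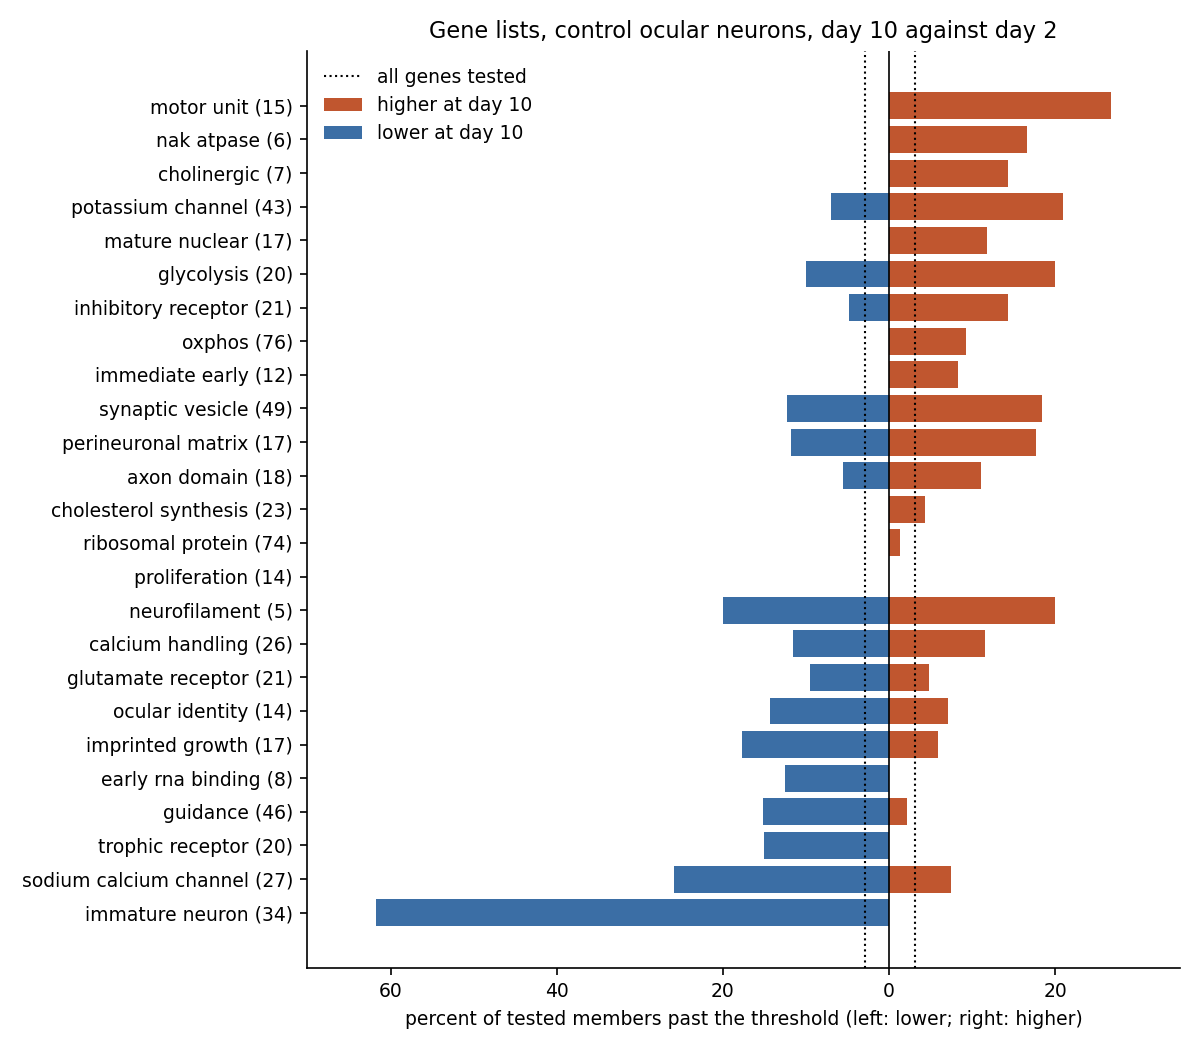
Share of tested members past the threshold in each of 25 gene lists, control ocular neurons, day 10 against day 2 (horizontal axis, percent: bars to the right are members higher at day 10, bars to the left members lower). The number of members tested is in parentheses, and the dotted lines mark the shares over all genes tested, 3.15% higher and 2.91% lower. The immature neuron list had 21 of 34 members lower and none higher, and the sodium and calcium channel list 7 of 27 lower.

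Extracellular matrix genes moved in both directions. Spp1, osteopontin, a secreted glycoprotein that marks large alpha motor neurons, had 153.2, 179.6, 278 and 151 RPKM at day 2, 493, 448, 433 and 449.6 at day 5 and 1047, 1335, 720.2 and 1029 at day 10. The ages did not overlap, and the rise was 2.45 on the log2 scale (SE 0.21, adjusted p 3.44e-05). Of 17 tested perineuronal matrix genes (22 listed) 3 rose and 2 fell. Hapln4 and Hapln1, which link proteoglycans to hyaluronan, went in opposite directions, Hapln4 from 54.5 ± 16.4 to 123.99 ± 15.0 (log2 change 1.21, SE 0.24, adjusted p 0.00931) and Hapln1 from 45.8 ± 5.17 to 27.2 ± 4.94 (log2 change −0.74, SE 0.21, adjusted p 0.0486), but the Hapln1 call was lost with any 1 of 11 mice left out, mouse 29 being the exception. Acan, aggrecan, the core of perineuronal nets, had 2.15 ± 1.12 and 6.51 ± 1.03 and missed the threshold (log2 change 1.33, SE 0.38, adjusted p 0.0555). Calcium-binding genes split evenly, 3 of 26 tested (28 listed) higher and 3 lower. S100b, a calcium-binding protein also made by astrocytes, had 214.4, 188.6, 187.7 and 228.7 at day 2, 363, 351, 253.6 and 329.5 at day 5 and 641, 614, 648 and 689 at day 10, with no overlap (log2 change 1.66, SE 0.15, adjusted p 3.44e-05). Pvalb, parvalbumin, was at 1651 ± 433 at day 2 and 1778 ± 156.3 at day 10 (log2 change 0.14, SE 0.17, adjusted p 0.698).

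The subunit genes of lactate dehydrogenase went in opposite directions. Ldha had 182.1, 185.6, 205.2 and 199.8 RPKM at day 2, 184.3, 135, 172.6 and 209.1 at day 5 and 51.7, 63.99, 77.6 and 81.5 at day 10. The day 10 mice were all below the others (log2 change −1.50, SE 0.18, adjusted p 0.000418). Ldhb rose from 914 ± 77.9 to 1758 ± 53.1 (log2 change 0.95, SE 0.12, adjusted p 0.000624). Of 20 tested glycolysis genes (21 listed) 4 rose and 2 fell, with the aldolase gene Aldoa and the pyruvate kinase gene Pkm up by 1.18 and 0.91 and the phosphofructokinase gene Pfkp down by 1.03 on the log2 scale (adjusted p 0.00448, 0.00344 and 0.00748). Of 76 tested genes of oxidative phosphorylation 7 rose and 0 fell, which is 9.21% called against 6.06% of all genes. Estimates were above 0 for 72 of the 76, with a median log2 change of 0.37 against 0.05 over all genes, and Uqcrc2 of complex III, with the lowest adjusted p of them, went from 323 ± 29.4 to 495 ± 15.3 (log2 change 0.62, SE 0.12, adjusted p 0.0105). Ribosomal protein genes gave 1 rise among 74 tested (77 listed) and a median of −0.03. Esrra and Mef2d, regulators of mitochondrial and activity-dependent genes, were the 2 rises among 17 tested nuclear factors of maturation (18 listed), by 1.57 and 1.74 (adjusted p 0.0323 and 0.0494), both lost without any 1 of the day 10 mice.

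Single genes changed in several other lists. Of 17 tested imprinted genes of growth (20 listed), Gnas, which encodes the stimulatory G protein subunit, had 29.4, 42.1, 82.3 and 63.95 RPKM at day 2, 80.8, 99.6, 90.3 and 90.9 at day 5 and 188.1, 225.5, 204.8 and 207.3 at day 10. Every day 10 mouse was above every earlier one (log2 change 2.005, SE 0.26, adjusted p 0.000582). Cdkn1c, Ndn and Magel2 fell, Ndn from a mean of 945 to 662 and Magel2 from 10.1 to 3.22. Of 18 genes of the initial segment and node, the cell adhesion gene Nfasc and the channel gene Kcna1 rose and the scaffold gene Ank3 fell, with log2 changes of 0.98 for Nfasc and −0.79 for Ank3 (adjusted p 0.04 and 0.0182). All 6 sodium pump subunits had estimates above 0, and 1 passed, Atp1b1, with means of 623 and 929 (adjusted p 0.0349). Of 12 tested immediate early genes (20 listed) Fos alone passed, with means of 2.09 and 8.92, which is 8.33% called against 6.06% of all genes. Among 8 tested early RNA-binding and chromatin genes (16 listed) Top2b, a topoisomerase of maturing neurons, fell from 24.4 to 8.42 (adjusted p 0.0167).

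Bag3 and Hspb6 were among the 12 largest rises. Bag3, a co-chaperone that directs damaged proteins to autophagy, had 0.372, 0, 0 and 6.05 RPKM at day 2, 6.75, 4.09, 7.81 and 10.99 at day 5 and 47.8, 50.99, 48.5 and 45.6 at day 10. The day 10 mice lay in a narrow range far above the rest (log2 change 4.80, SE 0.53, adjusted p 0.000183). Its partner Hspb6, a small heat shock protein, went from 2.23 ± 2.97 to 40.2 ± 6.999 (log2 change 4.07, SE 0.74, adjusted p 0.00574). Cryab, another small heat shock protein that oligodendrocytes also make, was chosen after its values were seen and went from 3.59 ± 1.65 to 56.2 ± 13.7 (log2 change 3.68, SE 0.53, adjusted p 0.00127). Further large rises were those of Cbx6_ann3, an entry described with day 5 below, from 0.324 ± 0.648 to 46.8 ± 10.9 (log2 change 5.25, SE 0.42, adjusted p 2.48e-05), Car7, a carbonic anhydrase of neurons, from 2.34 ± 4.09 to 42.7 ± 10.5 (log2 change 4.35, SE 0.79, adjusted p 0.00559), Anxa4, a calcium-dependent membrane protein, from 4.30 ± 4.22 to 71.04 ± 28.7 (log2 change 4.10, SE 0.72, adjusted p 0.00472), and the predicted gene Gm26673, from 1.62 ± 1.71 to 48.1 ± 10.02 (log2 change 4.49, SE 0.66, adjusted p 0.00139).

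Myelin genes, made by oligodendrocytes and not by neurons, rose in the same samples. Of 14 tested oligodendrocyte and myelin markers (17 listed), 11 were higher and 0 lower, with a median log2 change of 2.69. Mbp had 15.6, 0.513, 7.38 and 4.57 RPKM at day 2, 120.4, 113.05, 31.9 and 201.5 at day 5 and 243.1, 255.7, 229.4 and 181.6 at day 10 (log2 change 5.28, SE 0.62, adjusted p 0.000294). Mobp and Mog rose by 4.76 and 4.53 on the log2 scale (adjusted p 0.00127 and 0.00147). The summed level of the 16 markers in the table was 28.2 to 41.7 RPKM over the day 2 mice, 80.1 to 529 at day 5 and 422 to 623 at day 10, and 3, 1 and 0 of them were at 0 in every mouse of the age. In a pool cut by laser, more cells of a type and more RNA per cell cannot be told apart. Apod, an apolipoprotein that oligodendrocytes and other glia also make, rose by 4.64 (adjusted p 0.0405), a call lost without any 1 of the day 10 mice. The part of this glial RNA in other rises was not tested.

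Markers of other cell types were checked in the same way. Of 6 tested oligodendrocyte precursor markers (8 listed) Bcas1 and Enpp6 were higher (adjusted p 0.00135 and 0.0451), all 6 estimates were above 0, and the summed level of the 8 was 9.30 to 19.7 RPKM at day 2, 23.6 to 40.01 at day 5 and 34.4 to 51.3 at day 10. Of 13 tested astrocyte markers only S100b passed, which is 7.69% called against 6.06% of all genes. Aqp4, the astrocyte water channel, had a log2 change of 0.15. The summed level of 14 astrocyte markers, S100b among them, was 1569 to 1880.3 RPKM at day 2, 2022 to 2474 at day 5 and 2225 to 2675 at day 10. Days 2 and 10 did not overlap in this sum, which holds the rise of S100b, and the sum without S100b was not tested. Of the 13 estimates 7 were above 0 and 6 below, with a median log2 change of 0.15. Of 10 tested markers of other neurons nearby (16 listed) Ddc, which makes dopamine and serotonin from their precursors, passed, with means of 0.497, 10.4 and 6.49 RPKM at days 2, 5 and 10. None of 6 tested microglia markers, 6 vessel markers or 3 blood markers passed the threshold, which says little in sets this small beside 6.06% of all genes. Summed microglia levels were 23.7 to 63.6, 14.3 to 49.7 and 25.5 to 34.01 RPKM at days 2, 5 and 10. Ptgds, prostaglandin D synthase of the meninges, was at 564 RPKM in day 2 mouse 14 and at 33.1, 42.5 and 59.7 in the other day 2 mice, and at 1.45 to 11.1 at day 10 (log2 change −3.41, SE 0.76, adjusted p 0.0183). The Ptgds call was lost without mouse 252. It was the 1 called of 2 tested meningeal and fibroblast markers (7 listed), whose summed level was 33.3 to 582 RPKM at day 2, 25.9 to 57.2 at day 5 and 1.67 to 14.7 at day 10. The part of these cells in other changes was not tested.

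**Figure D3:**
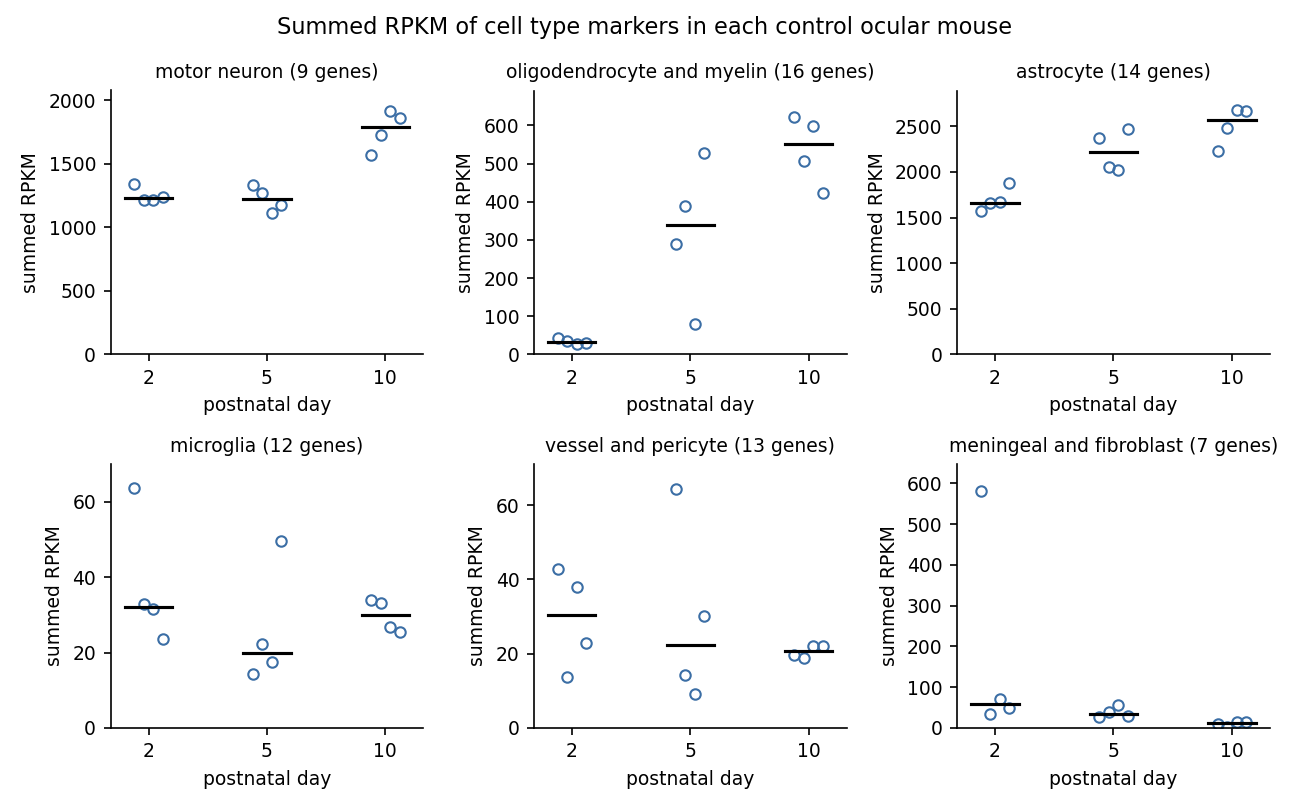
Summed RPKM of the markers of 6 cell types (vertical axes, each from 0) in each control ocular mouse (open circles, 4 per age) at postnatal days 2, 5 and 10, with a line at the median. Oligodendrocyte and myelin markers rose from at most 41.7 at day 2 to at least 422 at day 10, microglia and vessel markers were at most 64.3, and meningeal markers were at 582 in 1 day 2 mouse.

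Day 5 was then used to place the changes in time. Against day 2, day 5 differed in 4 of 13580 genes (0.0295%): Mbp, Kazald1 and Cbx6_ann3 were higher and 5430416N02Rik lower. At an unadjusted p under 0.05 there were 1242. Kazald1, a secreted protein that binds insulin-like growth factors, had means of 0.185, 6.78 and 16.7 RPKM (log2 change 2.61, SE 0.37, adjusted p 0.0349) and is named because the list is short. Cbx6_ann3 carries a suffix that is not explained in the sources used here. If it is a further annotation of the Polycomb gene Cbx6, reads may be split between entries. Cbx6_ann3 had 1.30, 0, 0 and 0 at day 2 and 15.5 to 58.3 at day 5. 5430416N02Rik, a noncoding transcript, had 104, 53.2, 95.5 and 61.6 at day 2, 18.6, 25.6, 16.5 and 13.9 at day 5 and 34.9, 25.04, 41.8 and 21.2 at day 10. It was lowest at day 5 (log2 change −1.99, SE 0.29, adjusted p 0.0356).

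Day 10 differed from day 5 in 134 genes (0.987%), 49 higher and 85 lower. Among genes chosen by the naming rule, the rise between these ages was largest for Kcng4, Adamtsl5, Vipr2 and Bag3, and the fall for Ifitm2, Scn3b, Fgd5 and Tubb2b. Vipr2, a receptor for vasoactive intestinal peptide, had 0.310, 0, 2.98 and 1.97 RPKM at day 5 and 27.7, 11.6, 8.61 and 9.38 at day 10, with mouse 247 the highest (log2 change 2.80, SE 0.53, adjusted p 0.0243). Fgd5, a guanine nucleotide exchange factor best known from vessels, had 5.14, 20.49, 5.62 and 15.7 at day 5 and 0.248, 1.38, 0.758 and 0.923 at day 10 (log2 change −2.63, SE 0.53, adjusted p 0.0331). The counts of both intervals depended on the mice: with 1 mouse left out the first ran from 1 (without day 5 mouse 75 or any 1 of the day 10 mice) to 13 (without day 2 mouse 26, and 12 without mouse 28), and the second from 36 (without mouse 252) to 162 (without mouse 244), being at most 87 without any 1 of the day 5 or day 10 mice. Without both mice 244 and 29 they were 7 and 98. With joint libraries only, day 5 has 1 mouse, whose spread is assumed to be that of the other ages, and the counts of 0 found there say nothing of how stable the intervals are.

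For the 823 genes that differed between days 2 and 10, the day 5 mean lay between the others in 764, on the log2 scale. Over all genes tested this held for 46.9%. Because these genes were picked for the distance between days 2 and 10, a middle value between them is likely, and no more is read from it. By day 5 the median gene had covered 41.3% of its change (quartiles 23.3% and 58.4%), 44.3% for the rises and 37.9% for the falls. Among the genes above, Spp1, Ngfr and Dcx had covered about as much before day 5 as after it, with changes by day 5 of 1.30, −1.82 and −1.47, whereas Scn3b, Ldha and Grm3 had changes by day 5 of −0.51, −0.15 and −0.31 and after it of −2.99, −1.34 and −1.79.

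The change from day 2 to day 10 was next compared with that of other control neurons, by testing the difference of the changes in 1 fit of 12 groups. It differed from the facial change in 54 of 18444 genes (0.293%), from the lumbar change in 38 (0.206%) and from the red nucleus change in 0.873% of the same genes. These 3 comparisons share the ocular samples, and the same mice gave several populations; SDs below are over the mice counted in the opening. The facial count fell to 34, 31, 33 and 27 without mice 244, 247, 252 and 253, the lumbar count to 24 and 23 without mice 247 and 253, and the red nucleus count to 70 and 95 (0.384% and 0.521% of genes tested) without mice 252 and 254. Kcng4 and Gap43 did not pass this test: for Kcng4 the difference was 1.40, SE 0.54, adjusted p 0.416 against facial, 0.15, SE 0.55, adjusted p 0.989 against lumbar and 2.01, SE 0.55, adjusted p 0.0683 against red nucleus neurons. For Gap43 it was −0.76, −0.31 and −0.87 (adjusted p 0.271, 0.857 and 0.0959). Both genes moved in the other 3 populations too, and Kcng4 went to 22.6 ± 3.84 RPKM in facial, 85.6 ± 6.83 in lumbar and 14.8 ± 5.005 in red nucleus neurons at day 10 (adjusted p of each rise 1.15e-11, 1.35e-14 and 5.27e-10).

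Several genes differed in their change between ocular neurons and 1 or more of these 3 populations. Lrrc52, an auxiliary subunit of BK potassium channels, was chosen after its values were seen. It was listed at 0 in all 4 ocular mice at day 2, had 0.410, 0, 1.07 and 5.57 RPKM at day 5 and 16.5, 13.1, 6.14 and 9.27 at day 10. In facial and red nucleus neurons it was listed at 0 in every mouse of days 2 and 10, and in lumbar neurons the highest day 10 value was 0.649. On the log2(RPKM + 1) scale, which gives no fold where a group is at 0, the difference of the changes was 3.54, SE 0.40, adjusted p 2.13e-07 against facial, 3.35, SE 0.41, adjusted p 1.38e-06 against lumbar and 3.54, SE 0.41, adjusted p 4.19e-07 against red nucleus neurons.

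Adamtsl5, a secreted relative of the ADAMTS proteases, was listed at 0 in all ocular mice at day 2 and had 27.1, 8.73, 8.38 and 12.3 RPKM at day 10. It was listed at 0 in all facial mice of both days, but reached 5.74 to 17.1 in red nucleus neurons at day 10. The difference was 3.77, SE 0.38, adjusted p 1.81e-08 against facial, 2.70, SE 0.39, adjusted p 5.53e-05 against lumbar and 0.28, SE 0.39, adjusted p 0.86 against red nucleus neurons, so it passed against facial and lumbar neurons and not against red nucleus neurons. Bag3 rose more than in facial neurons (2.64, SE 0.62, adjusted p 0.0421).

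Pcp4, a small regulator of calmodulin, was chosen after its values were seen. It had 945, 1756, 1666 and 1221 RPKM at day 2, 1044, 737, 856 and 1044 at day 5 and 472, 268, 542 and 395 at day 10 in ocular neurons. Every day 10 mouse lay below every earlier one. The mean went from 343 ± 53.3 to 524 ± 183.5 in facial, from 1320.3 ± 94.3 to 1251 ± 152.7 in lumbar and from 2745 ± 219.4 to 5037 ± 798 in red nucleus neurons. The differences were −2.31, SE 0.29, adjusted p 5.1e-06, then −1.66, SE 0.30, adjusted p 0.00316, and −2.60, SE 0.30, adjusted p 4.19e-07. Erc2 fell more than in each of the others, by differences of −1.75, −1.85 and −2.02 (adjusted p 0.00826, 0.00736 and 0.00113).

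Gal and Cd24a had lower means at day 10 than at day 2 in the other 3 populations and higher ones in ocular neurons. Gal, the peptide galanin, went from 31.9 ± 12.9 to 109.9 ± 87.2 RPKM in ocular and from 501 ± 144 to 132 ± 17.6 in facial neurons. The ocular values at day 10 were 223.9, 127.7, 24.0 and 63.8, and in the ocular fit alone the change did not pass (log2 change 1.41, SE 0.51, adjusted p 0.127). The differences were 3.29, 4.45 and 3.65 against facial, lumbar and red nucleus neurons (adjusted p 0.00333, 4.53e-05 and 0.000578). Cd24a, a surface glycoprotein of immature neurons, had 1.66, 15.1, 5.86 and 3.33 at day 2 and 36.1, 24.9, 18.7 and 18.1 at day 10 in ocular neurons, while the lumbar mean went from 146 ± 13.5 to 58.9 ± 24.4. In the ocular fit alone the change did not pass (log2 change 2.04, SE 0.68, adjusted p 0.0975), and of the other populations the fall passed in red nucleus neurons (adjusted p 0.0548, 0.11 and 8.05e-08 in facial, lumbar and red nucleus neurons). Its differences were 3.53, 3.42 and 6.13 (adjusted p 0.0062, 0.0169 and 4.19e-07).

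**Figure D4:**
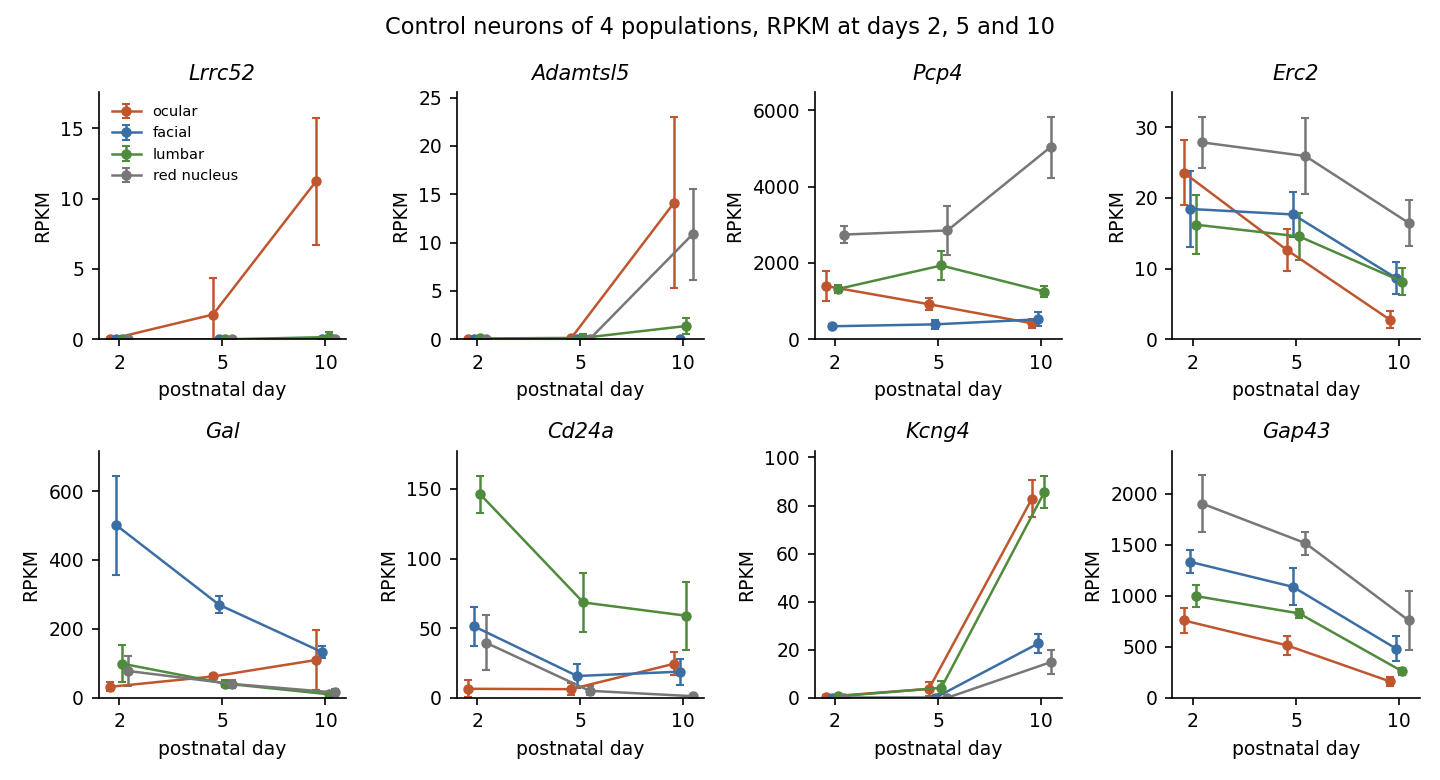
RPKM of 8 genes (vertical axes, each from 0) in control ocular, facial, lumbar and red nucleus neurons at postnatal days 2, 5 and 10 (horizontal axis). Points are means and bars SDs over 3 to 5 mice. Lrrc52 rose in ocular neurons and was listed at or near 0 elsewhere, Pcp4 and Erc2 fell most in ocular neurons, and Kcng4 and Gap43 moved the same way in all 4 populations.

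Several of the largest differences came mainly from the other population, whereas those of Igfbp5 and Vangl1 included a fall in ocular neurons. Against facial neurons, Grp, gastrin-releasing peptide, was at 43.4 ± 18.9 RPKM in facial neurons at day 2 and 0.699 ± 0.831 at day 10, and at most 1.49 in an ocular mouse of those days (5.01, SE 0.77, adjusted p 0.000238). Crip1, a LIM protein, had 70.4 ± 28.9 and 2.35 ± 2.85 in facial neurons and 1.32 ± 1.65 and 4.53 ± 2.78 in ocular ones (6.15, SE 1.203, adjusted p 0.0062, lost without mouse 247 or 253). Dcn, decorin of connective tissue, had 46.6 ± 28.4 in facial neurons at day 10 and at most 1.80 in ocular ones (−4.25, SE 0.999, adjusted p 0.0421, lost without any 1 of 7 mice). Igfbp5 and Vangl1, a planar polarity gene, fell in ocular neurons, while facial means at days 2 and 10 were 9.16 and 10.3 for Igfbp5 and 3.54 and 5.58 for Vangl1. The differences were −3.44, SE 0.60, adjusted p 0.00187 for Igfbp5 and −2.91, SE 0.69, adjusted p 0.0425 for Vangl1, the second lost without any 1 of 7 mice. Against lumbar neurons, Arhgap9, a GTPase-activating gene, rose in lumbar neurons to 17.8 ± 7.75 and was at most 0.327 in an ocular mouse at day 10 (−4.04, SE 0.49, adjusted p 1.38e-06). Against red nucleus neurons, Hapln4 and Hapln1 rose there by 4.05 and 3.02 on the log2 scale, with differences of −2.84 and −3.75 (adjusted p 8.78e-06 and 6.08e-06), and Pvalb rose there from 44.9 ± 41.2 to 568 ± 193.4, a difference of −3.85, SE 0.84, adjusted p 0.0115. At day 2 the means of Hapln4, Hapln1 and Pvalb were 54.5, 45.8 and 1651 in ocular and 6.32, 4.10 and 44.9 in red nucleus neurons.

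Trochlear and oculomotor neurons could be set side by side in 3 control mice, with no replicate test. Kcng4 had 111.8 and 65.4 RPKM in the oculomotor and trochlear libraries of day 10 mouse 254, 0.0742 and 5.01 in day 5 mouse 30 and 5.69 and 5.13 in day 5 mouse 75, so the nuclei had no common order. Gap43 had 125.5 and 289.9, 589 and 608 and 477 and 706 in the same order of mice. Lrrc52 was higher in the trochlear library in all 3 mice, at 2.15 against 0 in day 5 mouse 30, 10.9 against 0.207 in day 5 mouse 75 and 11.5 against 7.02 in mouse 254. Cartpt was higher in the oculomotor library in all 3 mice, among them 3702 against 1.27 in mouse 30 and 1872 against 336 in mouse 254.

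Ocular neurons of SMA mice gave the same age comparison in animals that share no sample with the controls. Library numbers again ran from lowest at day 5 to highest at day 10 without overlap. Age and library number thus cannot be told apart in these SMA mice either. Smn1, the gene disrupted in them, had 0 to 0.555 and 0 to 1.46 RPKM at days 2 and 5 and was listed at 0 at day 10 in SMA mice, and had 4.32 to 47.9, 9.26 to 20.2 and 13.1 to 34.6 at days 2, 5 and 10 in controls. There 1147 of 14112 genes differed between days 2 and 10 (8.13%). Of the 823 control genes 811 were tested in SMA mice, 771 had the same direction (95.1%, against 68.1% of 13192 genes tested in both), and 409 passed the threshold in that direction, which is 49.7% of the control list and 35.7% of the SMA list. Kcng4 changed by 4.94, adjusted p 1.39e-06, Gap43 by −1.55, adjusted p 0.00182, Spp1 by 2.26, adjusted p 0.000262 and Tubb2b by −2.63, adjusted p 1.42e-05 in SMA mice. Lrrc52 and Adamtsl5 rose there too (adjusted p 0.00115 and 0.0035), to 7.27 ± 3.16 and 7.36 ± 3.99 RPKM. Pcp4 did not pass in SMA mice (−0.68, adjusted p 0.285), where its day 10 values ran from 312 to 2377 RPKM.

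Cdkn1a and Plk2 were past the threshold in both sets of mice in opposite directions and are named because there were 2 of them. Cdkn1a fell in controls from 48.4 ± 13.4 to 3.93 ± 1.66 RPKM and rose in SMA mice from 73.6 ± 17.4 (n = 6) to 231.6 ± 60.6 (n = 5). Plk2, a kinase that is a p53 target like Cdkn1a, fell from 12.4 ± 6.62 to 3.07 ± 0.945 and rose from 13.9 ± 5.70 to 32.4 ± 15.6. A comparison of the control with the SMA change, added after the data were seen, passed for 20 of 15890 genes (0.126%), with differences of −5.00, SE 0.49, adjusted p 6e-07 for Cdkn1a and −2.77, SE 0.52, adjusted p 0.0142 for Plk2, the second lost without mouse 253. The count fell to 12 without control mouse 253 or 254 or SMA mouse 249. In controls alone the Plk2 call was lost without any 1 of the day 10 mice. Scn3b also fell more in controls (−2.38, SE 0.33, adjusted p 0.000285). Cbx6_ann3, near 0 in control mice at day 2, had 4.54 to 27.1 RPKM in SMA mice at that age, with a difference of 4.68, SE 0.65, adjusted p 0.000285.

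**Figure D5:**
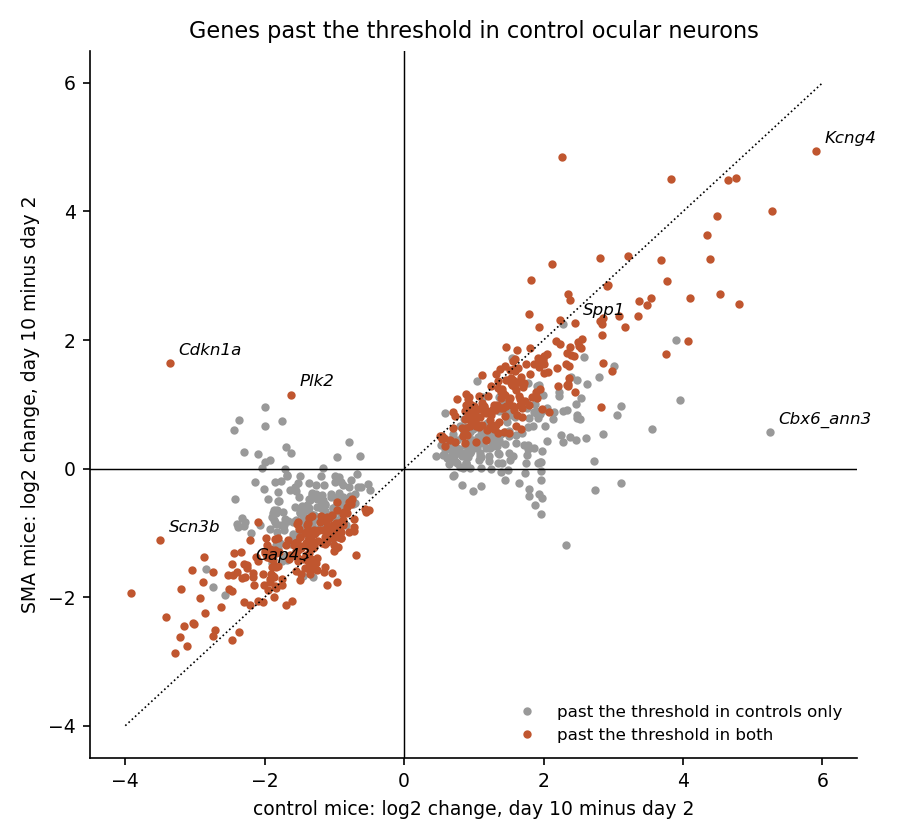
Log2 change from day 2 to day 10 in ocular neurons of control mice (horizontal axis) and SMA mice (vertical axis) for the 811 genes past the threshold in controls and tested in both. Red points also passed in SMA mice, grey points did not, and the dotted line marks equal changes. Most points share their sign, 771 of 811, and Cdkn1a and Plk2 lie in the opposite quadrant among the red ones.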

How the data were processed

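Values are RPKM as deposited by the authors, 1 table for all 168 libraries; STAR 2.4.1c and the builds mm10 and hg19 are named in the submitters' processing notes, while the counter, gene annotation and strand setting are not given in the sources used here. RPKM removes depth, so reads per library were estimated from the steps of low values of genes with 1 transcript in GENCODE M21. About 150 cells were pooled per tube, per the labels' protocols. Libraries of 1 mouse were averaged. Genes with at least 1 RPKM in at least 4 of 12 mouse samples (at least 3 in the fit of 12 groups, at least 5 in SMA mice, at least 4 in the control and SMA fit) were tested with limma 3.58.1 in R 4.3.3 (lmFit, eBayes with trend, two-sided) on log2(RPKM + 1), with Benjamini-Hochberg adjustment over all genes tested and a threshold of 0.05. The scripts were tested on simulated data. P-values measure the spread between mice.

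Named were the 12 largest rises and 12 largest falls between days 2 and 10 among called genes whose mouse values did not overlap and whose higher mean was at least 10 RPKM, the 4 largest of each direction between days 5 and 10, up to 4 called genes per list and direction, up to 3 per direction for each population difference, and preset genes; some genes that the rule names are not reported here. The members and lists were chosen with earlier results of these data known. Lrrc52, Pcp4, Plk2, Cryab, Kazald1, Cartpt and Smn1, and some list members given by means or p alone, were named after their values were seen, as was the control against SMA comparison. The same mice gave several populations, and same-mouse deviations from group means correlated at −0.0402 to 0.139 across genes (31 pairs). The alternatives were another pseudocount, other filters, quantile normalization, single libraries, other sets of groups, joint libraries only and each mouse left out.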

Additional observations from a re-analysis of the deposited data

Results flagged for a closer look

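In groups of 4 mice, a highest or lowest value was marked when its gap to the nearest of the others made up more of the whole range than Dixon's 95% critical value for 4 samples. This held for 31 of 387 groups checked. Chance alone gives about 1 in 20 for independent values of a normal distribution. Here the rule was applied to RPKM, several marked groups lie near 0 and the same mice recur over genes, so the share is not read as an excess. Mouse 14 of day 2 was the highest for Ptgds (564 RPKM), Cbx6_ann3 (1.30 RPKM), Apod (8.67 RPKM), Phox2a (3.02 RPKM), Sox11 (2.33 RPKM) and the summed meningeal and fibroblast markers (582 RPKM). Mouse 244 was the highest for Cdkn1c (37.9) and Mog (0.560). Mouse 26 was the highest for Mobp (2.21), Car7 (8.46), Glra2 (8.57) and Grp (0.176). Mouse 28 was the highest for Bag3 (6.05) and the lowest for Scn4b (1.99). At day 5, mouse 30 was the highest for Adamtsl5 (0.378) and Slc12a5 (115.6). Mouse 29 was the highest for Magel2 (9.997). Mouse 71 was the highest for Chat (55.9), Grp (0.456) and Arhgap9 (2.06). Mouse 75 was the highest for Phox2a (1.63) and Sox11 (0.263). At day 10, mouse 252 was the lowest for Ptgds (1.45), Hapln1 (19.9) and Nfasc (26.2). Mouse 247 was the highest for Vipr2 (27.7), Glra1 (9.66), Pfkp (279.8) and Grp (1.49). Mouse 254 was the highest for Dcn (1.80) and Arhgap9 (0.327).

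The change from day 2 to day 10 in ocular neurons differed from that of another population in the same fit for the genes below, given as ocular minus other change on the log2(RPKM + 1) scale, each with an adjusted p under 0.05 by limma. Against facial neurons the differences were −4.25 for Dcn, −3.44 for Igfbp5, −2.91 for Vangl1, −2.31 for Pcp4, −2.20 for Hapln1, −2.05 for Hapln4, −1.75 for Erc2, 2.64 for Bag3, 3.29 for Gal, 3.53 for Cd24a, 3.54 for Lrrc52, 3.77 for Adamtsl5, 5.01 for Grp and 6.15 for Crip1. Against lumbar neurons they were −4.04 for Arhgap9, −2.49 for Adamts16, −1.85 for Erc2, −1.66 for Pcp4, 2.70 for Adamtsl5, 3.35 for Lrrc52, 3.42 for Cd24a and 4.45 for Gal. Against red nucleus neurons they were −5.89 for Ptgds, −3.85 for Pvalb, −3.75 for Hapln1, −3.28 for Adamts16, −2.90 for S100b, −2.86 for Ngfr, −2.84 for Hapln4, −2.60 for Pcp4, −2.02 for Erc2, −1.96 for Ina, −1.89 for Stx1a, −1.17 for Sema3a, −1.07 for Syt2, −0.89 for Vamp1, −0.76 for Nefm, −0.71 for Nefl, −0.67 for Ldhb, 3.04 for Vipr2, 3.54 for Lrrc52, 3.65 for Gal and 6.13 for Cd24a. Ngfr, Vipr2, Ina, Vamp1, Syt2, Stx1a, S100b, Sema3a and Ldhb are described above for ocular neurons alone, and their red nucleus differences are given here as values.

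In ocular neurons of control against SMA mice the differences of the changes were −2.38 for Scn3b, −5.00 for Cdkn1a, 4.68 for Cbx6_ann3 and −2.77 for Plk2. The 3 population differences share the ocular samples.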

How the results depend on the processing

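Every one of the 823 genes kept its direction wherever it was still tested. This covered the 12 left-out mice, 8 other settings and the removal of both mice that stand apart, the last chosen after seeing the data. All of these reuse mice that picked the genes, so a kept direction is likely and no more is read from it. With 1 mouse left out, from 381 (without mouse 254) to 816 (without mouse 29) of the 823 genes kept the call. Of the named calls between days 2 and 10 that were still tested, 50.4% (57 genes) were lost with joint libraries only and 0 to 33.6% (0 to 39 genes) with 1 mouse left out. Of 3596 values of single genes and differences under alternatives, 3133 kept direction and side of the threshold, 409 lost the call, 24 gained one, and 30 changed sign without a call in either setting. The causes were not tested, except that joint libraries leave fewer mice (1 at day 5, assumed to vary like the other ages).

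Shares below are of genes tested in that setting. For day 10 against day 2, 8.02% passed with SMA mice in the fit, 1.67% with joint libraries only, and 2.87% to 7.11% with 1 mouse left out. For day 5 against day 2 it was 0.00424% without a filter on low values and 0.00804% with only the 2 ages (1 gene each), 0.0788% at a mean of at least 5 RPKM, 0.0527% without both mice that stand apart, 0.0704% with each library its own sample, 0.170% with SMA mice, 0 genes with joint libraries only (423 at an unadjusted p under 0.05, limma), and 0.00745% to 0.0968% with 1 mouse left out. For day 10 against day 5 it was 3.03% with each library its own sample, 1.58% with SMA mice, 1.60% with only the 2 ages, 0 genes with joint libraries only (358 at an unadjusted p under 0.05), and 0.270% to 1.21% with 1 mouse left out. A pseudocount of 0.1 gave 0.173% against facial neurons, without Igfbp5, Crip1, Dcn and Vangl1, and 0.0629% for control against SMA. With 1 mouse left out the shares were 0.148% to 0.396% against facial, 0.126% to 0.269% against lumbar and 0.384% to 1.02% against red nucleus neurons, 5.75% to 8.82% in SMA mice and 0.0759% to 0.190% for control against SMA. With the mouse as a replicate block, which pairs populations of the same animals, they were 0.315%, 0.233% and 0.981% against facial, lumbar and red nucleus neurons; the ages share no mouse, so nothing pairs them. Read depth limits genes near 0, where 1 read can make a difference between 0 and a low value.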
